A study of Mus musculus with 2 samples.

Results

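The 9 genes described here encode complement components and regulators that macrophages are known to make: the C1q chain genes C1qa, C1qb and C1qc, the classical pathway genes C4b and C2, the central component gene C3, the alternative pathway genes Cfb and Cfp, and Serping1, which encodes C1 inhibitor. They were chosen by name from 15605 genes listed in either library, and all 9 were found in both. RNA was taken from peritoneal macrophages of 6- to 8-week-old C57BL/6 mice, either Lgmn knockout or wild type, and both libraries came from cells kept for 4 days with the EO771 line, a breast carcinoma of C57BL/6 mice. Lgmn encodes legumain, a lysosomal protease. There was 1 library of Lgmn knockout macrophages and 1 of wild type macrophages, so no difference had a replicate check, no p-value was computed, and "higher" and "lower" describe these 2 libraries. How the knockout allele was made, how many mice each library holds and whether a membrane separated the cells are not given in the sources used here.

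Complement is a cascade of blood proteins that marks targets for uptake. C1q recognises antibody complexes and dying cells, and its partner proteases C1r and C1s then cleave C4 and C2 into a convertase that cleaves C3. C3 fragments bound to a surface combine with factor B into a second convertase, which properdin, the product of Cfp, stabilises, while C1 inhibitor blocks C1r and C1s. The liver makes most circulating complement, but C1q comes mainly from macrophages and dendritic cells, and peritoneal macrophages also make C3, factor B and properdin.

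The promoters are shown for the 4 of the 9 genes that the RefSeq promoter table of GRCm38.p6 holds, because they include C1qb and C1qc, whose levels were the highest of the 9, and C3 and Cfp, whose ratios lay on opposite sides of 0. Each runs from 250 bases before to 50 bases after the annotated start, on the minus strand: C1qb at chr4:136886151-136886450, C1qc at chr4:136892865-136893164, C3 at chr17:57228087-57228386 and Cfp at chrX:20931506-20931805. Capitals mark matches, on either strand, to the PU.1 core GAGGAA, the interferon gamma-activated site TTCNNNGAA, the interferon-stimulated element core GAAANNGAA, the C/EBP motif TTGCNNAA and the TATA box TATAAA.
C1qb: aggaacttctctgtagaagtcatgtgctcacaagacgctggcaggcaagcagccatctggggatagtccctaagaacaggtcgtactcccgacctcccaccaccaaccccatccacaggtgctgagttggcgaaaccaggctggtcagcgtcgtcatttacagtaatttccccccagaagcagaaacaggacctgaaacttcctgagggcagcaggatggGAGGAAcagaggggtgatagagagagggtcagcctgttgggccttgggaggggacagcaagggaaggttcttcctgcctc
C1qc: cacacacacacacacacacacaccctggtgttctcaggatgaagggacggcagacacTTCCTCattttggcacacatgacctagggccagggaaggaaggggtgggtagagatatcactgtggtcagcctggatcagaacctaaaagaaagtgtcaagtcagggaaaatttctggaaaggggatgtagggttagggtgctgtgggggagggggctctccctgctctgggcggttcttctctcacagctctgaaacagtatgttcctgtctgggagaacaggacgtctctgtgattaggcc
C3: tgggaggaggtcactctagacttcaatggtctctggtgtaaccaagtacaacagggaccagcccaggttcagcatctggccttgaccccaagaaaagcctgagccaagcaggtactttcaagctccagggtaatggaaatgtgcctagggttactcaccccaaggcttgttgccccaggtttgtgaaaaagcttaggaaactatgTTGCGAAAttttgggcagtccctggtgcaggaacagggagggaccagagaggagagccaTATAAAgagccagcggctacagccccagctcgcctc
Cfp: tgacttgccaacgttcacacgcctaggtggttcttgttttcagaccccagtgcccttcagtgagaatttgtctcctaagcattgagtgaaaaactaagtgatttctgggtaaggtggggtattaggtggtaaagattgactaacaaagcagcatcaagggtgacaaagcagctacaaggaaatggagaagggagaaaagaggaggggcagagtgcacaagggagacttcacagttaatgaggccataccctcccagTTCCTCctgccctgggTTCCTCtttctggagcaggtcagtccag
The PU.1 core, a motif of a myeloid transcription factor, lay 30 bases before the start of C1qb and, on the other strand, 193 bases before the start of C1qc, and Cfp held a pair of such matches within its first 50 transcribed bases. This motif occurs in 28.3% of all 32851 promoters of this length. C3 had a C/EBP match 45 bases before its start and a TATA match 14 bases after it, motifs found in 10.8% and 13.6% of promoters. The interferon gamma-activated site and the interferon-stimulated core, present in 8.3% and 8.56% of promoters, did not match in any of the 4 windows. A match is a description of letters and not of a bound site.

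Depth was 11740202 estimated counts in the knockout library, with 14756 genes listed, and 11885784 in the wild type library, with 14681. Lgmn itself had 426 estimated counts in the knockout library, against 23550 in the wild type library. The library labelled knockout thus held far fewer Lgmn counts, though some remained. Macrophage genes were abundant in both, with 12481 FPKM of the lysozyme gene Lyz2 in the knockout library and 13192 in the wild type library. FPKM is the authors' fragment count divided by transcript length and by each library's mapped fragments. Defining genes of resident large peritoneal macrophages were close to the limit of counting, Gata6 at 0.74 and 0.60 FPKM and Timd4 at 0.62 and 0.76 FPKM in the knockout and wild type libraries.

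The C1q chains dominated the group. Summed over the chains, C1q reached 2657 FPKM in the knockout library and 1723 FPKM in the wild type library, which was 87.2% and 81.7% of the FPKM of all 9 genes. C1q took 0.281% of all counts in the knockout library, with a 95% exact Clopper-Pearson interval of 0.278% to 0.284%, and 0.182% in the wild type library, with an interval of 0.180% to 0.185%. These intervals, like those of all ratios below, cover counting error only, because 1 library per genotype cannot give the spread between replicates. They may be too narrow even for that, since reads that carry no molecular identifier can be copies of 1 molecule. Cfp lay below all C1q chains in the knockout library and between C1qc and C1qa in the wild type library, Cfb followed at a lower level, and C2, C4b and Serping1 stayed at or below 4.81 FPKM in both libraries.

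**Figure D1:**
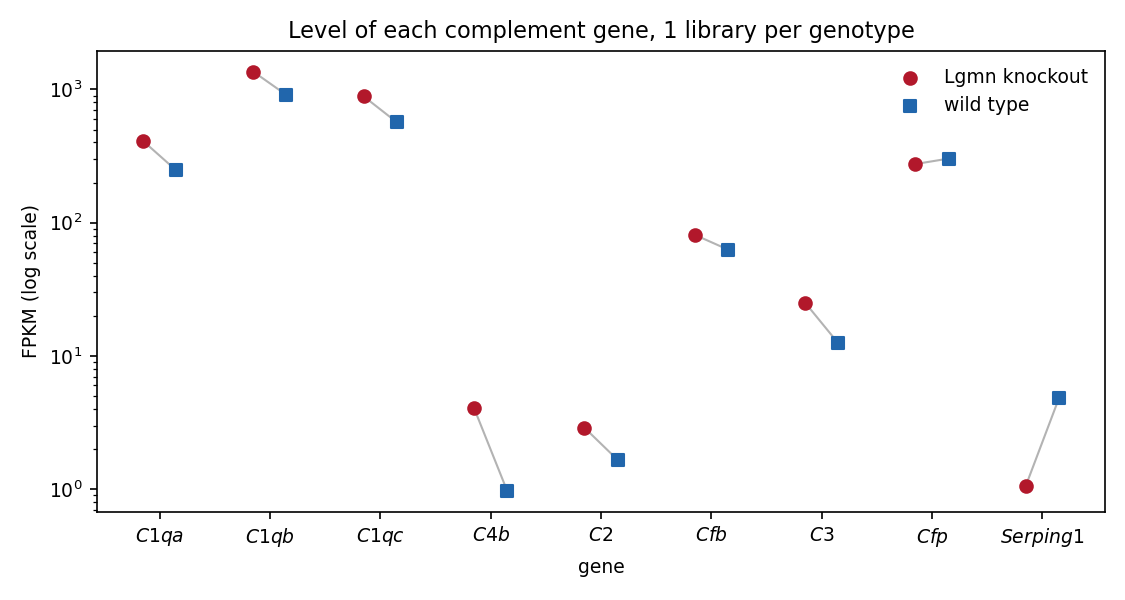
FPKM on a log scale for each of the 9 complement genes, with 1 point per library and a line joining the libraries. C1qb is the most abundant gene in both, and Serping1 and Cfp are the genes that sit lower in the knockout library.

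Between the libraries, 1 of the 9 genes, C4b, was higher in the knockout library by 2-fold or more and 1, Serping1, was lower by as much, while 7 lay between. A gene was tested where either library held 50 or more counts, and of the 9498 genes tested 6.06% were 2-fold or more higher and 1.74% 2-fold or more lower, so single genes past 2-fold do not set the group apart. Counts were scaled with TMM factors, and a log2 ratio is the knockout over the wild type value after adding 1 scaled count to both. Of the 9 genes, 7 had a log2 ratio above 0, and their median of 0.40 compares with 0.00 over all genes tested. All 9 passed the minimum of 50 counts, 8 of them in both libraries and Serping1 in the wild type library alone. In such bulk RNA, fewer cells of a type and less RNA per cell cannot be told apart.

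The scaling and the transcript length both bear on these values. Scaling by library totals moved the median of all genes to 0.24, and the higher share of all genes past 2-fold was 90.6% with it and 90.2% with FPKM, against 77.7% with TMM. The log2 ratio also followed transcript length, with a median of -0.37 in the shortest of 10 equal groups of genes and 0.77 in the longest. With that trend subtracted, 2.14% of genes were higher by 2-fold or more and 1.9% lower by as much, and the higher share was 53.0%. The C1q transcripts belong to the shortest group and those of C3 and C4b to the next to longest, so length-adjusted ratios are given beside theirs. Against the genes of their own length group, 6 of the 9 genes lay above the upper quartile, namely the C1q chains, C2, C3 and C4b, while Serping1 lay below the lower quartile and Cfb and Cfp lay within.

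**Figure D2:**
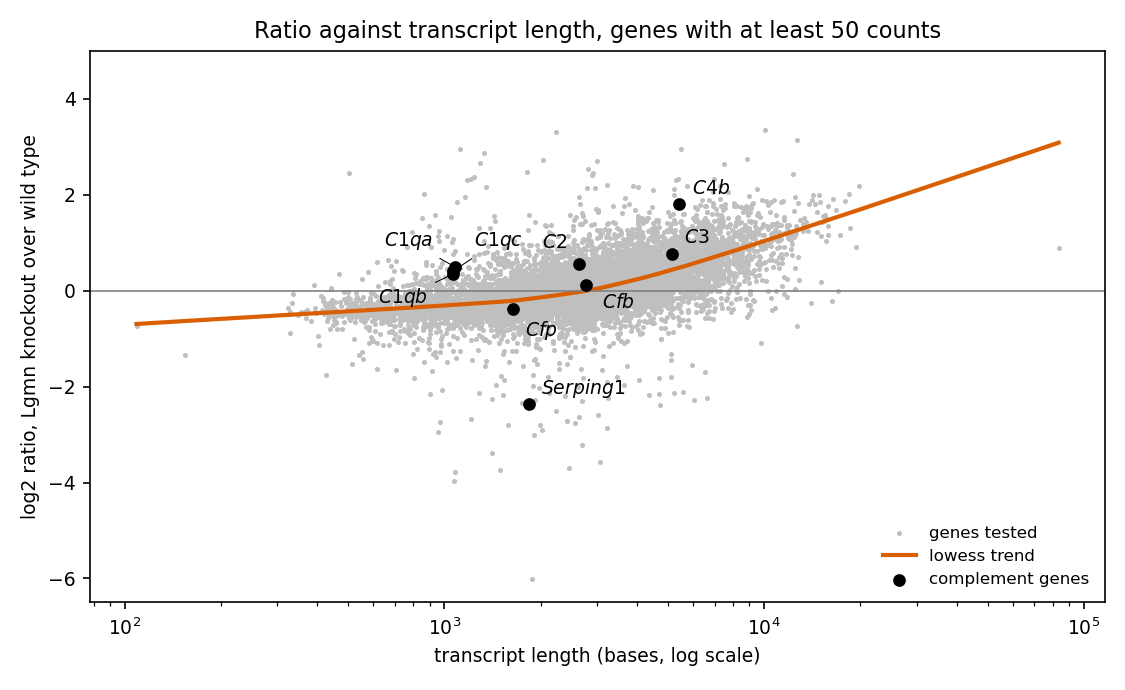
Log2 ratio of knockout over wild type against transcript length for all 9498 genes tested (grey), with the lowess trend in orange and the 9 complement genes in black. The short C1q transcripts lie above the trend, C3 lies 0.34 above it, and C4b and Serping1 lie farthest from it.

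C1qa, C1qb and C1qc encode the A, B and C chains that assemble into C1q and sit side by side within 18.7 kb of chromosome 4. All of them were somewhat higher in the knockout library, by less than 2-fold. C1qa (Entrez gene 12259, 136895916 to 136898844 in GRCm38) had 5181 estimated counts and 411 FPKM in the knockout library, against 3161 counts and 247 FPKM in the wild type library, 1.41-fold higher with an interval of 1.35 to 1.47. C1qb (gene 12260, 136880126 to 136886200) had 16810 counts and 1359 FPKM in the knockout library, against 11391 counts and 908 FPKM in the wild type library, 1.27-fold higher (1.24 to 1.30). C1qc (gene 12262, 136889801 to 136892936) had 10982 counts and 887 FPKM in the knockout library, against 7119 counts and 567 FPKM in the wild type library, 1.32-fold higher (1.28 to 1.36).

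The chains kept close to the same proportions. C1qb made up 51.2% of C1q FPKM in the knockout library and 52.7% in the wild type library, C1qc 33.4% and 32.9%, and C1qa 15.5% and 14.4%. The interval of C1qa did not overlap that of C1qb, and the interval of C1qc overlapped both. Their log2 ratios of 0.49, 0.34 and 0.40, in the order C1qa, C1qb and C1qc, were 0.79, 0.64 and 0.70 with the length trend subtracted, so adjustment moved all chains further above 0. All chains stayed above 0 and below 2-fold under each of the 10 other scalings, minimums and pseudocounts run.

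C4b (gene 12268, chromosome 17, 34728139 to 34743902), which encodes the component C4 that binds covalently to targets, showed the largest positive ratio of the group at a low level. It had 263 estimated counts and 4.05 FPKM in the knockout library, against 64 counts and 0.97 FPKM in the wild type library. This was 3.53-fold higher, with an interval of 2.67 to 4.71, and 2.51-fold higher with the length trend subtracted. In its length group 9.37% of genes were at least 2-fold higher.

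C4b has a near-identical copy, C4a, which starts 65.2 kb away on chromosome 17 and is annotated as a transcribed pseudogene. Their longest GENCODE vM21 transcripts were 96.1% identical over 5367 aligned bases, with 207 mismatches and an identical run of up to 433 bases. Reads that fall within identical stretches can be divided between the copies only by estimate. The stretch of 60 bases with the most mismatches, searched from base 1000 to base 4000 of the C4b transcript, is shown because reads over it tell the copies apart, with the 13 mismatches in capitals. It covers bases 2761 to 2820 of the C4b transcript and 2755 to 2814 of the C4a transcript.
C4b: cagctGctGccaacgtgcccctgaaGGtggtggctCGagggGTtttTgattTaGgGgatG
C4a: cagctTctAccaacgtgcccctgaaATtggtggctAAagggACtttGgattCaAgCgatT
C4a had 4.83 estimated counts in the knockout library and was not listed in the wild type library. The counts of both copies summed to 268 in the knockout library and 64 in the wild type library, 3.59-fold higher (2.73 to 4.80), so the ratio did not rest on how reads were divided.

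C2 (gene 12263, chromosome 17, 34862602 to 34882100) encodes the serine protease partner of C4 and was too low for a narrow estimate. It had 91 counts and 2.89 FPKM in the knockout library, against 53 counts and 1.66 FPKM in the wild type library. Its ratio of 1.47-fold higher had an interval of 1.04 to 2.11, which reaches past 2-fold, and its log2 ratio of 0.55 was 0.58 with the length trend subtracted.

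Cfb (gene 14962, chromosome 17, 34856374 to 34862514) encodes factor B, the counterpart of C2 in the alternative pathway, and ends 87 bases from the start coordinate of C2. It had 2668 counts and 81.0 FPKM in the knockout library, against 2099 counts and 62.9 FPKM in the wild type library, 1.09-fold higher (1.03 to 1.16). Its log2 ratio of 0.13 stayed at 0.13 with the length trend subtracted and was 0.36 with library totals. Cfb exceeded C2 28.0-fold in FPKM in the knockout library and 37.9-fold in the wild type library.

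C3 (gene 12266, chromosome 17, 57203967 to 57228136) encodes the component on which all complement pathways converge. It had 1543 counts and 25.1 FPKM in the knockout library, against 777 counts and 12.45 FPKM in the wild type library, 1.70-fold higher (1.56 to 1.86). Its call depended on the processing, since its log2 ratio of 0.77 was 1.01 with library totals, past 2-fold as it also was with FPKM, but 0.34 with the length trend subtracted. The median of its length group was 0.42, with an upper quartile of 0.70.

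Cfp (gene 18636, chromosome X, 20925454 to 20931555) encodes properdin, the stabiliser of the alternative pathway convertase. It had 5317 counts and 276 FPKM in the knockout library, against 5922 counts and 303 FPKM in the wild type library, 1.30-fold lower (1.25 to 1.35). Its log2 ratio of -0.38 was -0.17 with the length trend subtracted and -0.14 with library totals, below 0 under every setting run. The FPKM of Cfp was 11.0 times that of C3 in the knockout library and 24.3 times in the wild type library.

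Serping1 (gene 12258, chromosome 2, 84765360 to 84775444), the gene of the inhibitor of C1r and C1s, was lower in the knockout library. It had 23 counts and 1.06 FPKM in the knockout library, against 106 counts and 4.81 FPKM in the wild type library. This was 5.37-fold lower, with an interval of 3.40 to 8.84, and 4.59-fold lower with the length trend subtracted. In its length group 2.21% of genes were at least 2-fold lower, a share that also covers genes with 50 counts in both libraries. Serping1 reached 50 counts in the wild type library alone, and by that rule such genes are more often lower in the knockout library. With a minimum of 200 counts Serping1 could not be tested.

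**Figure D3:**
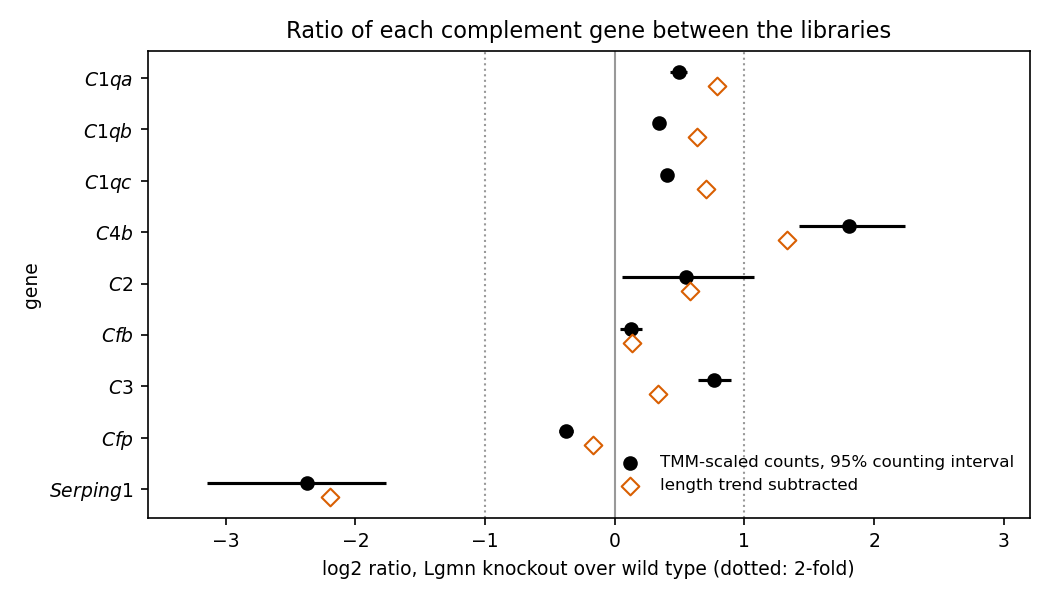
Log2 ratio of knockout over wild type for the 9 genes from TMM-scaled counts (black, with the 95% counting interval) and with the length trend subtracted (orange diamonds). C4b lies beyond the dotted 2-fold line on the higher side and Serping1 on the lower side in both.

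Most fibroblast markers with enough counts to test were lower in the knockout library, as was Serping1. Fibroblasts also make C1 inhibitor and C3, and C3 was 1.70-fold higher in the knockout library. Of 13 fibroblast markers, all listed, 8 had enough counts to test, 5 of them in both libraries and the rest in the wild type library alone. Genes tested through the wild type library alone are by that rule more often lower in the knockout library. Sparc, Dcn and Bgn had enough counts in both libraries and were past 2-fold on the lower side. The shares of all genes tested past 2-fold were 1.74% on the lower side and 6.06% on the higher. Of the 8 fibroblast markers tested, 7 were past 2-fold on the lower side and 0 on the higher. Their median log2 ratio was -2.05 and the list had a summed FPKM of 27.4 in the knockout library and 85.4 in the wild type library. Sparc, Dcn and Bgn had the highest mean FPKM of this list, and Thy1, the tested gene that did not pass 2-fold, had a log2 ratio of 0.28. Of 9 mesothelial markers, 8 were listed, and the number of these without any count was 6 in the knockout library and 0 in the wild type library. Their summed FPKM was 0.45 in the knockout library and 6.12 in the wild type library. Krt19 had 4 and 67 counts in the knockout and wild type libraries and was the only one tested, through the wild type library alone. The others had at most 13 counts. The part of these cells in the Serping1 ratio was not tested.

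Part of a list of genes of the interferon gamma pathway, its receptors and kinases included, was higher in the knockout library. In human monocytes interferon gamma is known to raise C2, C4, factor B and C1 inhibitor. Of 25 genes tested, 21 had enough counts in both libraries and the rest in the knockout library alone. Genes tested through the knockout library alone are by that rule more often higher there, and all such genes of this list passed 2-fold. Over all genes tested, 6.06% passed 2-fold on the higher side. Of the 25 genes of this list, 9 passed 2-fold on the higher side, 0 on the lower and 16 on neither, and 2 had a ratio below 0. Their median was 0.77, and they summed to 4397 FPKM in the knockout library and 2670 FPKM in the wild type library. Cd74, H2-Aa and Psmb8, of antigen presentation, had the highest mean FPKM of this list, and their log2 ratios of 0.77, 0.28 and -0.18 were 1.03, 0.57 and 0.09 with the length trend subtracted, which put Cd74 past 2-fold and turned Psmb8. Beside these, the log2 ratios of C4b, C3, C2, Cfb and Serping1 were 1.80, 0.77, 0.55, 0.13 and -2.37. The part of interferon gamma in the complement ratios was not tested.

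The general macrophage markers showed no common direction beside the C1q chains. For the lists that follow, the shares of all genes tested past 2-fold were 6.06% on the higher side and 1.74% on the lower. Of 12 macrophage markers listed, 10 were tested, and 2 passed 2-fold on the higher side and 0 on the lower. Their median was 0.06, and the list summed to 18478 FPKM in the knockout library and 20689 FPKM in the wild type library. Lyz2, Cd68 and Trem2, the highest of this list, had log2 ratios of -0.32, -0.70 and -0.58. Cd163 and Cx3cr1 had at most 10.9 counts in either library. Dendritic cells also make C1q, and their 6 listed markers of 8 summed to 3.02 FPKM in the knockout library and 0.69 FPKM in the wild type library, with Clec9a, the 1 gene tested, past 2-fold on the higher side. The 11 listed T and NK cell markers of 12 summed to 141 FPKM in the knockout library and 69.8 FPKM in the wild type library, with 3 of 7 tested at least 2-fold higher. Those 3, like Clec9a, reached 50 counts in the knockout library alone, and 3 others of the 7 reached it in both. Of 9 neutrophil markers, 2 were tested and 0 passed 2-fold, with sums of 111.5 and 87.0 FPKM in the knockout and wild type libraries, mostly of S100a8. The large peritoneal list of 10 summed to 791 FPKM in the knockout library and 787 FPKM in the wild type library, mostly of Cd9 and F10, and 6 of the 10 were under 50 counts. Of the 4 tested, F5 passed 2-fold on the higher side, with a log2 ratio of 1.46 that was 0.70 with the length trend subtracted. F5 also reached 50 counts in the knockout library alone. No B cell or epithelial carcinoma marker reached 50 counts, and these lists summed to 2.51 and 1.42 FPKM and to 0.85 and 0.99 FPKM in the knockout and wild type libraries. The part of these cells in the complement ratios was not tested.

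**Figure D4:**
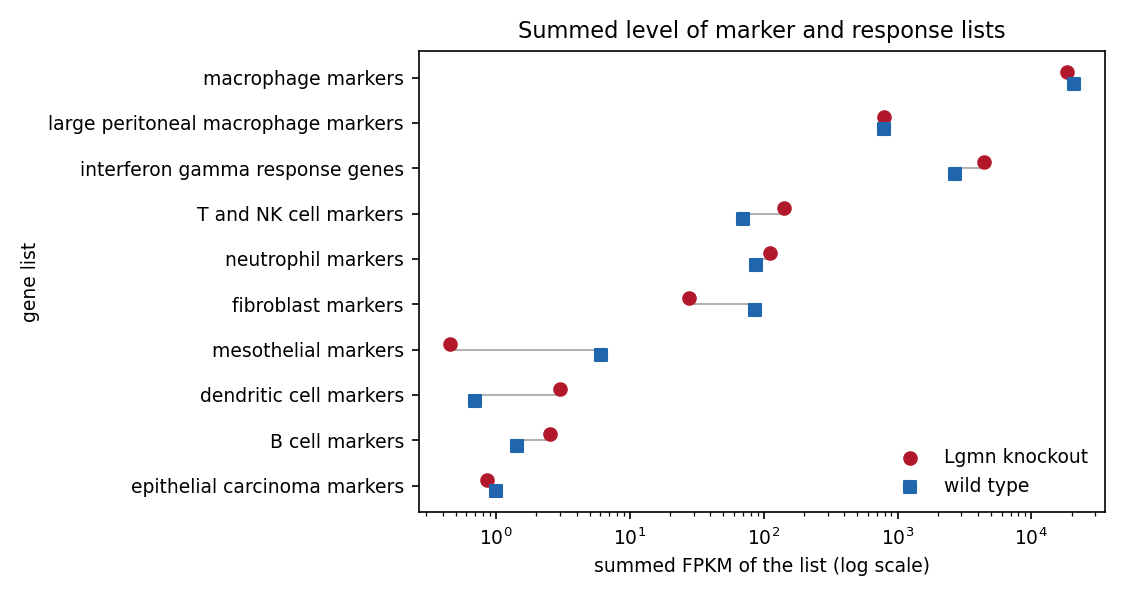
Summed FPKM on a log scale of each marker or response list in the knockout (red circles) and wild type (blue squares) libraries. Fibroblast and mesothelial sums are lower in the knockout library, while interferon gamma, T and NK cell and dendritic cell sums are higher.

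Of 50 further complement genes, 18 were listed in neither library, 14 had fewer than 50 counts and 18 could be tested. Among all genes tested, 6.06% passed 2-fold on the higher side and 1.74% on the lower. Of the 18 complement genes tested here, 1 passed 2-fold on the higher side, 0 on the lower side and 17 on neither. Their median log2 ratio was -0.06. The cascade was therefore detected in part. None of the 7 genes of terminal components, which form the membrane pore, reached 50 counts, 5 were listed in neither library, and C8a and C8g had at most 21 counts. Cfd, the gene of factor D, which cleaves factor B, had 1 count in each library.

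Among 13 genes that start the classical and lectin pathways, 3 were tested and none passed 2-fold. C1ra, the gene of the C1r protease, had 353 counts and 10.7 FPKM in the knockout library, against 318 counts and 9.54 FPKM in the wild type library, with a log2 ratio of -0.07 that was 0.17 with library totals. C1s1, of the C1s protease, had 39.1 counts in the knockout library and 60 in the wild type library, 1.79-fold lower (1.18 to 2.76). Fcna, of ficolin A, a lectin pathway receptor, had 30.3 FPKM in the knockout library and 31.6 FPKM in the wild type library, with a log2 ratio of -0.30 that was -0.04 with the length trend subtracted.

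Of 9 genes of soluble regulators other than Serping1, 2 were tested and 0 passed 2-fold. Clu, of clusterin, which keeps the terminal complex from membranes, had 247 counts in the knockout library and 371 in the wild type library, 1.75-fold lower (1.49 to 2.06). Of 9 membrane regulators, 3 were tested and 0 passed 2-fold. Cr1l, the rodent convertase inhibitor Crry, had 54.3 FPKM in the knockout library and 57.2 FPKM in the wild type library, a log2 ratio of -0.32. Cd59a and Cd55 had 4.31 and 2.89 FPKM in the knockout library and 3.84 and 2.59 FPKM in the wild type library, and their log2 ratios of -0.04 and -0.08 were above 0 with library totals.

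Of 11 receptor genes, 10 were tested, and 1 passed 2-fold on the higher side and 0 on the lower, with a median of -0.01. The shares of all genes tested were 6.06% on the higher side and 1.74% on the lower. C3ar1, of the receptor for the C3 fragment C3a, had 333 FPKM in the knockout library and 327 FPKM in the wild type library, with a log2 ratio of -0.21 that was 0.02 with library totals and -0.50 with the length trend subtracted. Itgb2, of the beta chain of complement receptor 3, had 390 FPKM in the knockout library and 336 FPKM in the wild type library, with a log2 ratio of -0.03 that was 0.21 with library totals. Calr, of calreticulin, a C1q-binding chaperone, had 239 FPKM in the knockout library and 200 FPKM in the wild type library, a log2 ratio of 0.01. Lrp1, of a large endocytic receptor that acts with calreticulin, was 3.98-fold higher (3.63 to 4.36), with 2642 counts in the knockout library and 570 in the wild type library. Its log2 ratio of 1.99 was 0.58 with the length trend subtracted.

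**Figure D5:**
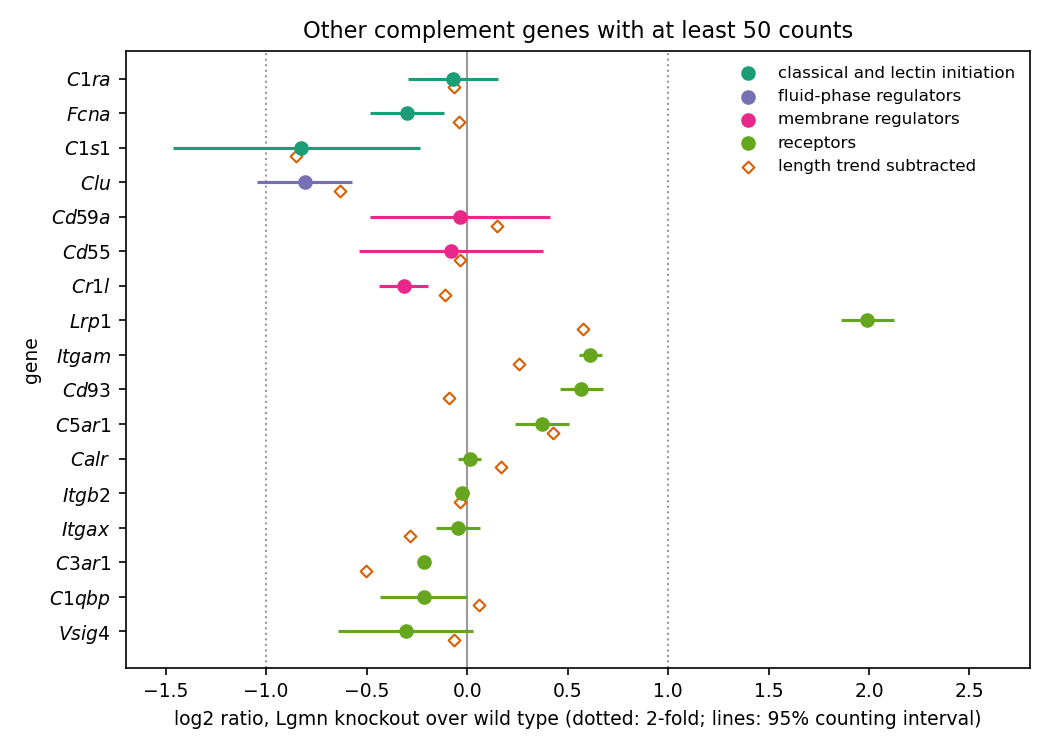
Log2 ratio of knockout over wild type for 17 of the 18 further complement genes tested, coloured by role, with 95% counting intervals and the length-adjusted value as an orange diamond. Lrp1 alone lies past the dotted 2-fold line, and its adjusted value lies inside it.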

How the data were processed

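Peritoneal macrophage RNA was read on a BGISEQ-500 instrument, per the labels' protocols. The deposited files give estimated counts per Entrez gene, not scaled between libraries, with transcript length and the authors' FPKM, per the file headers. The submitters' processing notes list HISAT2, Bowtie2, RSEM and mm10 but give no roles and no versions. The lowest listed FPKM is 0.01, and a gene listed in 1 file alone was given 0 counts in the other. Whether strand was used is not given in the sources.

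A RefSeq table of GRCm38.p6, the assembly of mm10, supplied symbols and coordinates and matched 15561 of 15605 identifiers. Counts were rounded, and TMM scaling (edgeR 4.0.16, R 4.3.3) gave factors of 1.09 for knockout and 0.921 for wild type. Folds are ratios of scaled counts, and log2 ratios have 1 scaled count added. A gene needed 50 counts in the higher library, and 2-fold was the threshold. Each ratio's 95% interval is the exact Clopper-Pearson interval of the share of its counts that came from the knockout library. The length trend is a lowess curve with a span of 0.3 through the log2 ratios against log2 length. Alternatives were scaling by library totals or by the size factors of DESeq2 1.42.0, FPKM with 0.1 added, centring on the median, a minimum of 10, of 200 or of no counts, pseudocounts of 0.5 and 5, the length trend, and thresholds of 1.5-fold and 4-fold. The calculation was tested on simulated data with counting error only, which hold no length trend and no spread between replicates.

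The 9 genes, the lists and the tests were chosen with earlier results of these data known, and the motifs after the promoters were seen. Named by rule were the 9 genes, Lgmn, other complement genes past 2-fold or among the 3 highest in mean FPKM of their role, and up to 3 genes of highest mean FPKM of each marker list. A gene that the rule takes is not reported here. Gata6, Timd4, Krt19, Thy1, F5, Clec9a, Cd163, Cx3cr1, Cfd, C8a, C8g, C4a and S100a8 were named after their values were seen. Python 3.11.15, scipy 1.17.1 and statsmodels 0.14.6 were used.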

Additional observations from a re-analysis of the deposited data

How the results depend on the processing

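C4b stayed above 0 and Serping1 below 0 under every alternative in which they were tested, and no ratio past 2-fold changed sign. C4b was past 2-fold at log2 ratios of 1.33 to 2.04, and Serping1 at -2.40 to -2.08. The number of the 9 genes at least 2-fold higher was 2 with library totals, with FPKM and at 1.5-fold, C3 being the added gene, and 0 at 4-fold. The number lower was 0 with a minimum of 200 counts, which leaves Serping1 and C2 out. Their median was 0.64 with library totals, 0.65 with FPKM and 0.58 with the length trend subtracted. Over all genes, the numbers higher and lower were 1036 and 107 with library totals, 936 and 102 with FPKM, 922 and 436 with a minimum of 10 counts, 274 and 67 with one of 200, 1459 and 1531 with none, 1563 and 607 at 1.5-fold and 40 and 45 at 4-fold, against 576 and 165, and 203 were higher with the length trend subtracted. Among the other complement genes, the number higher was 0 with the length trend subtracted and at 4-fold, 2 with a minimum of 10 counts, 5 with none and 2 at 1.5-fold, and the number lower was 2 with no minimum and 2 at 1.5-fold. The genes added with lower minimums were Masp2, C4a, C1s2 and Cd46 on the higher side and C1rb and Csmd1 on the lower, and at 1.5-fold Itgam, Clu and C1s1, all named after their values were seen. Counts of 23 to 106 limit C2 and Serping1 most. No paired analysis was possible because each genotype has 1 library.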

Other observations

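The few genes tested next to the 9 complement genes did not pass 2-fold. Of 31 genes that start within 50 kb of any of these, 12 were tested and 0 passed 2-fold in either direction. Their log2 ratios ran from -0.49 to 0.69, with a median of -0.22. Over all genes tested, 6.06% passed 2-fold on the higher side and 1.74% on the lower, so 0 of 12 does not set the neighbours apart. The neighbours of C2 and Cfb on chromosome 17 went both ways. Nelfe, of a subunit of a factor that pauses transcription, had 483 counts in the knockout library and 533 in the wild type library, a log2 ratio of -0.36. Skiv2l, of an RNA helicase of the exosome, had 161 counts in the knockout library and 85 in the wild type library, a log2 ratio of 0.69. Ehmt2, of a histone methyltransferase, had 661 and 397 counts in the knockout and wild type libraries, a log2 ratio of 0.51. Near Serping1, Ube2l6, of an enzyme of ISG15 conjugation, had 138 FPKM in the knockout library and 140 FPKM in the wild type library, a log2 ratio of -0.26. With the length trend subtracted, the log2 ratios of Nelfe, Skiv2l, Ehmt2 and Ube2l6 were -0.13, 0.47, 0.29 and -0.01. These genes were named after their values were seen.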
